A study of Mus musculus with 15 samples.

Results

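The endoplasmic reticulum (ER) chaperones examined here were the 10 genes Hspa5, Hsp90b1, Calr, Canx, Pdia3, Pdia4, Pdia6, Dnajb9, Herpud1 and Xbp1, taken by name from the 28361 transcript clusters of the array, which hold 19934 genes annotated with a single symbol. All 10 were measured. A gene was represented by the transcript cluster annotated to it alone, and Pdia4, the only member with 2 such clusters, by the one with the higher mean log2 intensity over the arrays. Compared with spontaneously breathing control mice, Dnajb9 and Herpud1 were higher and Calr, Pdia4 and Pdia6 were lower in H2S-ventilated lungs, by 1.28- to 1.41-fold, while Hspa5 and the other 4 genes did not pass the test. Calr, Pdia4 and Pdia6 were also lower in air-ventilated lungs, but these calls were close to the threshold. Dnajb9 and Herpud1 differed from control in the same direction with air, by 0.35 and 0.29 on the log2 scale, and narrowly did not pass. No member passed the test between H2S- and air-ventilated lungs.

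Secreted and membrane proteins fold inside the ER. Hspa5 encodes BiP, the ER member of the Hsp70 family, and Hsp90b1 encodes Grp94, the ER member of the Hsp90 family. Calreticulin (Calr) and calnexin (Canx) bind proteins by their sugar chains, and the protein disulfide isomerases Pdia3, Pdia4 and Pdia6 form and rearrange disulfide bonds. When unfolded proteins accumulate, sensors in the ER membrane switch on the unfolded protein response, in which the transcription factors ATF6 and spliced XBP1 raise chaperone transcription and ATF4 raises amino acid and stress genes. Dnajb9 (ERdj4) is a cochaperone of BiP, and Herpud1 (Herp) is a membrane protein that helps to send misfolded proteins out of the ER for degradation. In the lung, alveolar type II cells, which secrete surfactant, and plasma cells, which secrete antibody, are known for a large ER.

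RNA came from the right inferior lobe of the lung of male C57BL/6N mice of 24 to 26 g, with 1 Affymetrix array per mouse. Every mouse was anesthetized with ketamine (90 mg/kg) and acepromazine (1 mg/kg) and was given an arterial line and a tracheal tube. H2S-ventilated mice were mechanically ventilated for 6 h with synthetic air containing 80 ppm hydrogen sulfide (H2S), air-ventilated mice for 6 h with synthetic air alone, and control mice were left to breathe synthetic air on their own over 6 h, with 5 mice in each group. The ventilator delivered 12 ml/kg per breath at 80 to 90 breaths per minute in both ventilated groups, with an end-expiratory pressure of 2 cm H2O. Mice are named here by the numbers in their labels, whose meaning the labels do not give.

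The ER stress response element (ERSE) is the promoter sequence through which ATF6 is known to act on chaperone genes. It has the letters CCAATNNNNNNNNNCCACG, where N is any base, and ERSE-II has the letters ATTGGNCCACG. Both were searched on both strands of the RefSeq promoter windows of GRCm38.p6, which run from 250 bases before to 50 bases after each start site and were found for all 10 genes. An exact ERSE match was present in the windows of 5 of the 10 genes and of 0.137% of all 27025 genes with a window. ERSE-II was present in the window of 1 member, Herpud1, and in those of 0.0444% of all genes. Because the element is already known from chaperone genes, its presence here is a description and no test. The sites are printed because some members hold a match and others do not. Each is given 5′ to 3′ on the strand of its gene with 15 bases on either side and the element in capitals.
Hspa5, chr2:34772010-34772058, plus strand, ERSE: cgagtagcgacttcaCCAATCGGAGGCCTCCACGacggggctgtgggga
Hsp90b1, chr10:86705623-86705671, minus strand, ERSE: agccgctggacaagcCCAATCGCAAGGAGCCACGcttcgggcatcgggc
Hsp90b1, chr10:86705518-86705566, minus strand, ERSE in reverse: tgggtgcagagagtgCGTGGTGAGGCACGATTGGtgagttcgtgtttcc
Calr, chr8:84847060-84847108, minus strand, ERSE in reverse: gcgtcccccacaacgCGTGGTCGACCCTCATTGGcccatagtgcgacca
Canx, chr11:50325785-50325833, minus strand, ERSE: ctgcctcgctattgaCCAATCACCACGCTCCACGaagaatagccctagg
Pdia6, chr12:17266476-17266524, plus strand, ERSE: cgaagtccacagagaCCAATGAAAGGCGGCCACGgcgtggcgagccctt
Herpud1, chr8:94386362-94386402, plus strand, ERSE-II: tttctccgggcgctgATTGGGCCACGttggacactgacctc

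These sites began between -212 and -52 bases from the start site, and Hsp90b1 was the only member with more than 1 exact ERSE match. Copies of the element with a mismatched letter were not searched for. The CCACG end of the element, which every ERSE and ERSE-II contains, was present in the windows of 8 of the 10 genes and of 35.5% of all genes. Pdia4 and Dnajb9 held that end alone, and Pdia3 and Xbp1 held none of these letters. The unfolded protein response element TGACGTGG, which also contains that end in reverse, was in the windows of 0 of the 10 genes and of 0.714% of all genes. A match of letters is a description and does not show that a factor binds there.

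**Figure D1:**
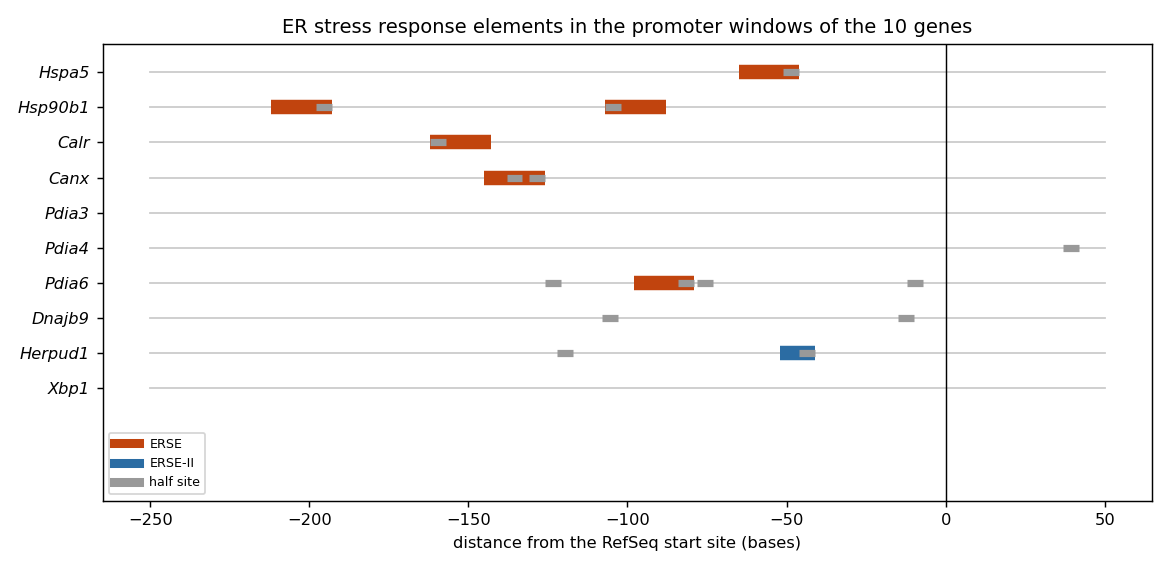
ER stress response elements in the promoter windows of the 10 genes. The horizontal axis gives the distance from the RefSeq start site in bases, orange blocks are ERSE matches and the blue block is the ERSE-II match of Herpud1. Grey blocks are all matches of CCACG, the last 5 bases of the element, on either strand, whether inside an element or alone. ERSE matches lie in Hspa5, Hsp90b1, Calr, Canx and Pdia6.

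The arrays gave lung profiles. Among all 28361 transcript clusters, the type II cell gene Sftpc, the club cell gene Scgb1a1, the type I cell gene Ager and the endothelial gene Pecam1 ranked at the 99.97, 99.89, 99.12 and 97.47 percentiles of mean intensity. Median intensity was 179 to 187 per array, and arrays of a group correlated at 0.984 to 0.994 across transcript clusters, which are not independent replicates. Intensities are linear values, and because probes of different genes respond differently they are compared only between mice within a gene. Differences were tested with limma on log2 values with all 15 arrays in 1 model, two-sided, with Benjamini-Hochberg adjustment over all 28361 transcript clusters, and a gene passed at an adjusted p under 0.05. The p-values set a difference between groups against the spread between mice, and the number of arrays limits their precision. In whole lung tissue, fewer cells of a type and less RNA per cell cannot be told apart.

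Of the 10 members, 2 were higher and 3 were lower in H2S-ventilated than in control lungs. Over all transcript clusters, 3.92% were higher and 3.93% were lower by the same test. The members were all brighter than the median transcript cluster of any array and were chosen with earlier results known. Member counts beside these shares are therefore a description. In air-ventilated lungs, 0 members were higher and 3 were lower than in control lungs, where 1.56% of all transcript clusters were higher and 1.89% lower. Dnajb9 and Herpud1, at an unadjusted p under 0.05 in limma, were higher with air by CyberT, the other test run. By CyberT, Calr (adjusted p = 0.0537) and Pdia4 (adjusted p = 0.0531) did not pass with air, and Pdia6 stayed lower. Between H2S- and air-ventilated lungs 0 members passed by limma, as did 0.0776% of all transcript clusters. At an unadjusted p under 0.05 there were 1 of the 10 members and 1612 of the 28361 transcript clusters. CyberT also passed 0 members in that comparison. The median log2 difference over the members was -0.17 for H2S-ventilated minus control lungs, -0.17 for air-ventilated minus control lungs and 0.01 for H2S- minus air-ventilated lungs, while the median over all transcript clusters was 0.00, 0.01 and -0.01. The study's thresholds were a p of 0.005 or less, an adjusted p of 0.1 or less and a fold change of 1.7 or more. The study set them on CyberT p-values and its own effect size. Here they were applied to limma p-values and to folds between group means of log2 values. So applied, they passed 0 members in each comparison, since the largest fold between group means was 1.41, 1.30 and 1.14. They passed 1.45% of all transcript clusters for H2S-ventilated against control lungs, 0.959% for air-ventilated against control lungs and 0.0599% for H2S- against air-ventilated lungs. Each of the ventilated groups was set against these same 5 control mice, so their differences from control are not independent.

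Groups were also compared by whether their mice overlapped. Dnajb9 and Herpud1 were higher in every H2S-ventilated mouse than in any control mouse, and Calr was lower, as were 4.11% and 4.09% of all transcript clusters in these directions. In air-ventilated mice, Herpud1 was above and Calr below every control mouse, where 2.65% and 2.90% of all transcript clusters separated in these directions. H2S- and air-ventilated mice overlapped in all 10 members, and 1.20% of all transcript clusters separated those groups in either direction.

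**Figure D2:**
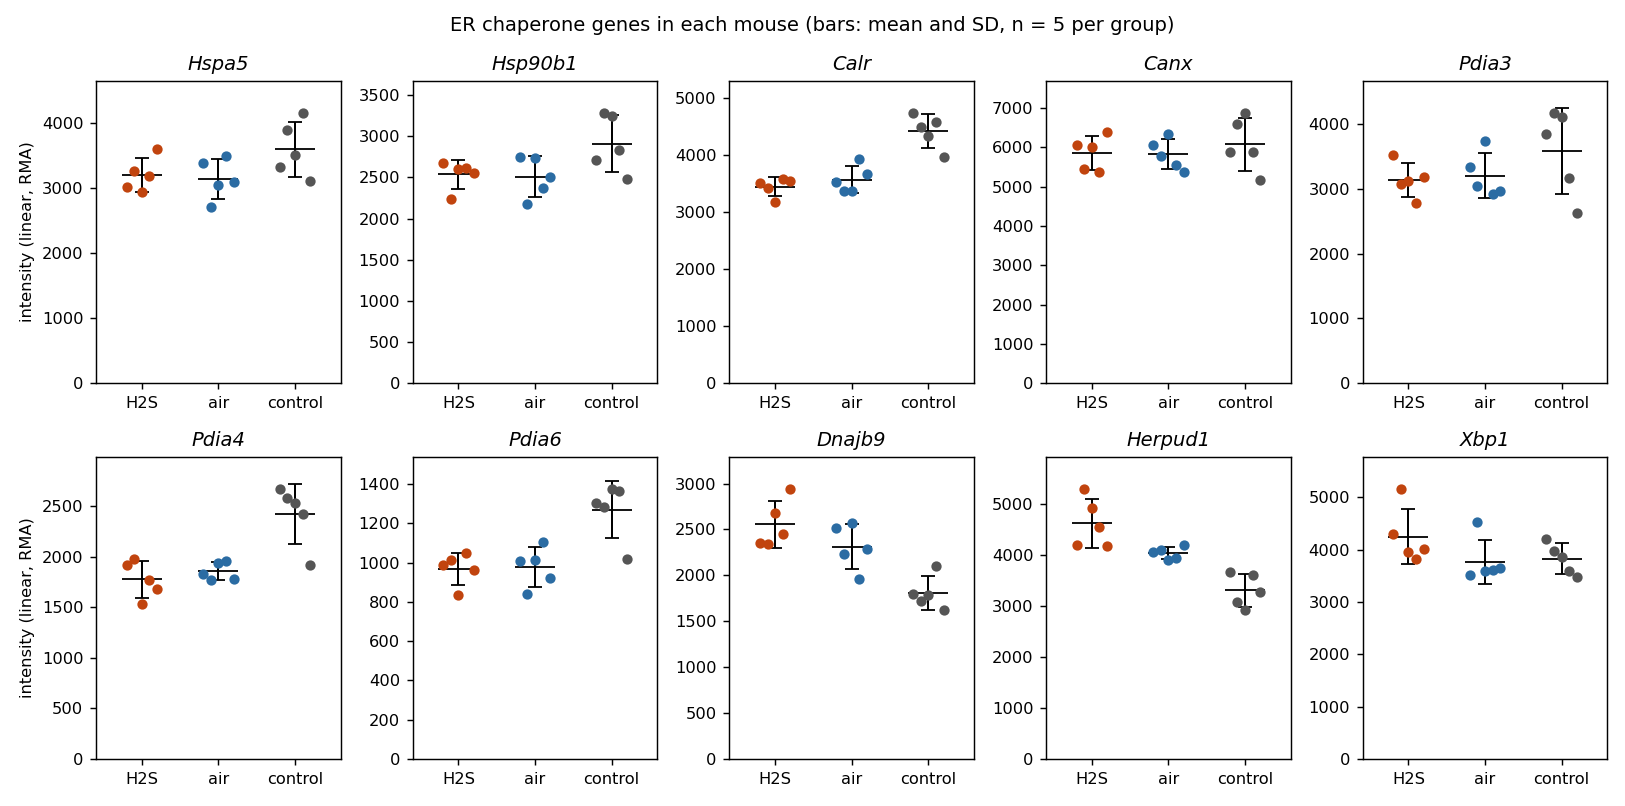
Intensity of the 10 ER chaperone genes in each mouse. The vertical axes give linear intensity from 0, points are mice of the H2S-ventilated, air-ventilated and control groups, and bars show the mean and SD of 5 mice. The control groups of Calr, Dnajb9 and Herpud1 stand apart from the H2S-ventilated group, and the other 7 genes overlap.

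Hspa5, which also holds the ER sensors inactive while no unfolded protein is bound, overlapped between all groups. Its intensity was 2945, 3182, 3605, 3262 and 3009 in H2S-ventilated mice, 2707, 3051, 3092, 3487 and 3384 in air-ventilated mice and 4147, 3105, 3330, 3502 and 3898 in control mice. The 2 highest values belonged to control mice, and the H2S-ventilated mouse was the lower in 20 of the 25 pairs of an H2S-ventilated and a control mouse. The log2 difference was -0.16 (SE 0.09, adjusted p = 0.368) for H2S-ventilated minus control lungs, with a 95% interval of -0.36 to 0.04. It was -0.19 (SE 0.09, adjusted p = 0.386) for air-ventilated minus control lungs.

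Hsp90b1, which folds a narrower set of clients such as integrins and Toll-like receptors, averaged 2536 ± 173 in H2S-ventilated mice, 2509 ± 247 in air-ventilated mice and 2908 ± 343 in control mice (SD, n = 5 each). The log2 difference was -0.19 (adjusted p = 0.26) for H2S-ventilated and -0.21 (adjusted p = 0.307) for air-ventilated minus control lungs. Neither passed, and all 3 groups overlapped.

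The lectin chaperones differed from each other. Calr had 3186, 3580, 3549, 3428 and 3515 in H2S-ventilated mice, 3372, 3381, 3663, 3929 and 3525 in air-ventilated mice and 4587, 3964, 4735, 4330 and 4503 in control mice. All 10 ventilated mice were below the lowest control mouse. Calr fell by 0.36 on the log2 scale in H2S-ventilated lungs (SE 0.07, adjusted p = 0.00474), a level 21.9% lower than in control lungs. In air-ventilated lungs it fell by 0.31 (SE 0.07, adjusted p = 0.0208), a level 19.2% lower. Canx, its membrane-bound relative, averaged 5848 ± 437, 5816 ± 381 and 6071 ± 668 in H2S-ventilated, air-ventilated and control mice (SD, n = 5 each). Its log2 differences from control were -0.05 with H2S (95% interval -0.23 to 0.13) and -0.06 with air (95% interval -0.24 to 0.12), and neither passed.

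Among the disulfide isomerases, Pdia4 and Pdia6 were lower after ventilation and Pdia3 did not pass. Pdia4 (ERp72) had 1529, 1771, 1679, 1983 and 1919 in H2S-ventilated mice, 1769, 1935, 1781, 1962 and 1827 in air-ventilated mice and 2421, 1923, 2670, 2537 and 2581 in control mice. Only the control mouse labelled 13_25, at 1923, lay within the range of the ventilated mice. Pdia4 fell by 0.45 on the log2 scale in H2S-ventilated lungs (SE 0.09, adjusted p = 0.00766) and by 0.38 in air-ventilated lungs (SE 0.09, adjusted p = 0.0357). The second transcript cluster annotated to Pdia4 was dim, at 68.1 to 106 in H2S-ventilated, 85.4 to 114 in air-ventilated and 84.9 to 118 in control mice. Its log2 difference from control was -0.23 in H2S-ventilated and 0.01 in air-ventilated lungs. With both clusters averaged, Pdia4 differed from control by -0.34 with H2S (adjusted p = 0.0186) and by -0.19 with air (adjusted p = 0.307), which did not pass.

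Pdia6 (P5) had 833, 1047, 964, 1016 and 986 in H2S-ventilated mice, 838, 1014, 923, 1107 and 1010 in air-ventilated mice and 1366, 1021, 1303, 1375 and 1282 in control mice. Again the control mouse labelled 13_25 was the exception, and the other 4 control mice were above every ventilated mouse. Pdia6 fell by 0.39 on the log2 scale in H2S-ventilated lungs (SE 0.10, adjusted p = 0.0236) and by 0.37 in air-ventilated lungs (SE 0.10, adjusted p = 0.0482). In H2S-ventilated lungs it no longer passed when 1 of 3 mice was left out, with -0.36 (adjusted p = 0.0564) without the control mouse 12_21, -0.35 (adjusted p = 0.0668) without the control mouse 7_9 and -0.33 (adjusted p = 0.0643) without the H2S-ventilated mouse 9_12. Pdia3 (ERp57), which works with calnexin and calreticulin on glycoproteins, averaged 3136 ± 268 in H2S-ventilated, 3203 ± 341 in air-ventilated and 3584 ± 664 in control mice (SD, n = 5 each). Its control values spread from 2631 to 4162, and its log2 differences were -0.18 with H2S (adjusted p = 0.479) and -0.15 with air (adjusted p = 0.714).

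The air-ventilated calls for Calr, Pdia4 and Pdia6 were close to the threshold. Calr no longer passed without the control mouse 6_5 (-0.30, adjusted p = 0.0533) or the air-ventilated mice 11_6 (-0.29, adjusted p = 0.0581), 12_10 (-0.29, adjusted p = 0.0653) or 6_2 (-0.30, adjusted p = 0.0565). Pdia4 no longer passed without any 1 of the control mice 12_21, 5_1, 7_9 and 6_5 or the air-ventilated mice 11_6, 12_10, 35_26 and 6_2, with differences of -0.40 to -0.34 and adjusted p of 0.0596 to 0.0984. Pdia6 kept its call only without the control mouse 13_25, the air-ventilated mouse 34_22 or the H2S-ventilated mouse 9_12, and with any other mouse left out its difference was -0.39 to -0.32 (adjusted p = 0.0536 to 0.131).

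In H2S-ventilated lungs Dnajb9 and Herpud1 went the other way. Dnajb9 had 2685, 2454, 2940, 2339 and 2358 in H2S-ventilated mice, 2232, 2565, 2292, 1957 and 2515 in air-ventilated mice and 2106, 1622, 1798, 1784 and 1725 in control mice. H2S-ventilated mice were all above control mice, and in air-ventilated mice 24 of 25 pairs had the higher value in the ventilated mouse. Dnajb9 rose by 0.50 on the log2 scale in H2S-ventilated lungs (SE 0.09, adjusted p = 0.00395), which is 1.41-fold. In air-ventilated lungs the difference was 0.35 (SE 0.09, adjusted p = 0.0514), just outside the threshold.

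Herpud1 had 4919, 4545, 4176, 5298 and 4203 in H2S-ventilated mice, 4100, 3915, 4204, 3948 and 4072 in air-ventilated mice and 3604, 3283, 3669, 2922 and 3091 in control mice. All 10 ventilated mice were above the highest control mouse, and air-ventilated mice were the most alike (SD 118, against 481 in H2S-ventilated and 322 in control mice). Herpud1 rose by 0.48 on the log2 scale in H2S-ventilated lungs (SE 0.08, adjusted p = 0.00229). In air-ventilated lungs the difference of 0.29 (SE 0.08, adjusted p = 0.0693) did not pass, although the groups did not overlap. Dnajb9 passed with air without the control mouse 12_21 (0.41, adjusted p = 0.0241), the air-ventilated mouse 34_22 (0.41, adjusted p = 0.0194) or the H2S-ventilated mouse 27_28 (0.35, adjusted p = 0.0472), and Herpud1 without the H2S-ventilated mouse 4_8 (0.29, adjusted p = 0.0466).

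Xbp1, the transcription factor gene whose mRNA is spliced by the sensor IRE1, averaged 4252 ± 535 in H2S-ventilated, 3773 ± 422 in air-ventilated and 3829 ± 294 in control mice (SD, n = 5 each). The highest value, 5158, was in the H2S-ventilated mouse 4_8, and the groups overlapped. The log2 difference was 0.15 (adjusted p = 0.449) for H2S-ventilated and -0.02 (adjusted p = 0.977) for air-ventilated minus control lungs. One value per gene does not separate spliced from unspliced Xbp1 mRNA.

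**Figure D3:**
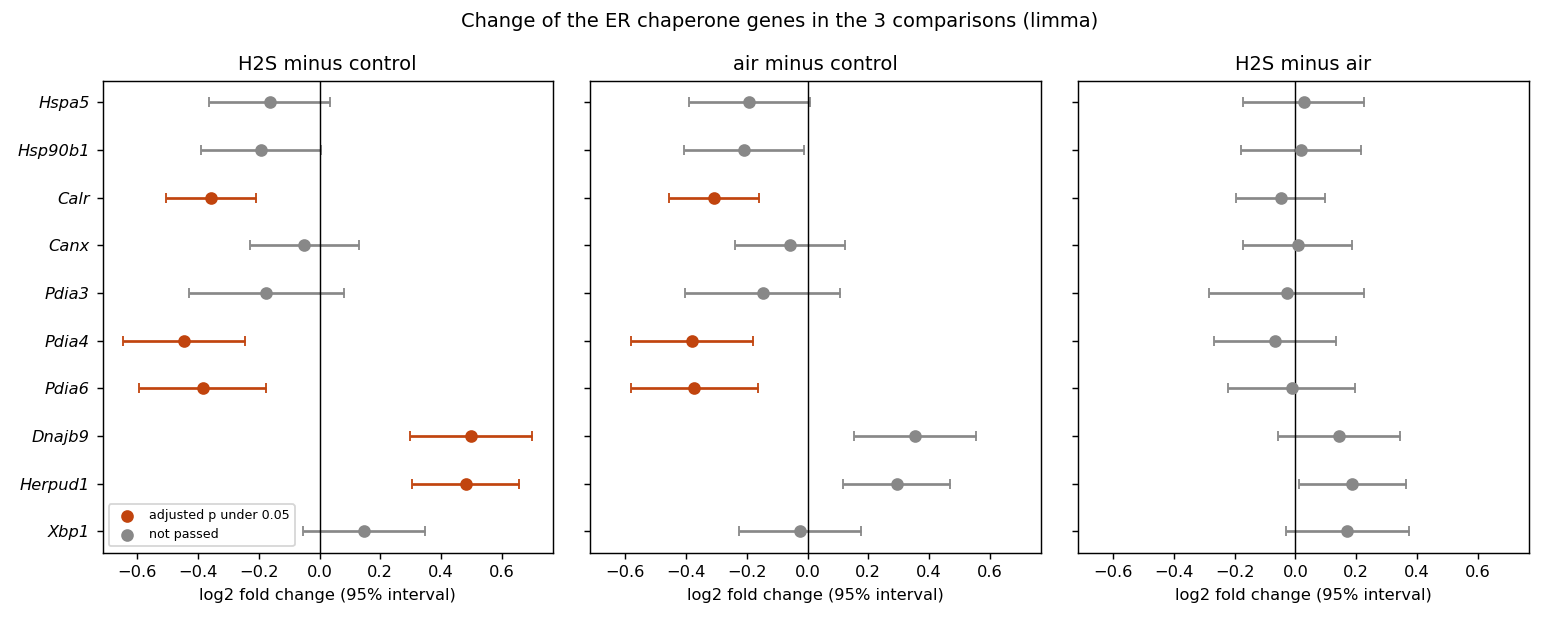
Log2 fold change of the 10 genes in 3 comparisons. Points are limma estimates on the horizontal axis with their 95% intervals, and orange points passed at an adjusted p under 0.05. Orange points are Calr, Pdia4, Pdia6, Dnajb9 and Herpud1 for H2S minus control and Calr, Pdia4 and Pdia6 for air minus control, and H2S minus air has none.

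Between H2S- and air-ventilated lungs, the question was whether adding H2S to ventilation changed these genes. The log2 differences of the 10 genes ran from -0.07 to 0.19, and their 95% intervals lay within -0.28 and 0.37. Herpud1 had the largest difference, 0.19 (95% interval 0.01 to 0.36), with an unadjusted p = 0.0389 and an adjusted p = 0.83, and in 23 of 25 pairs the H2S-ventilated mouse was higher. Xbp1 differed by 0.17 (95% interval -0.03 to 0.37) and Dnajb9 by 0.15 (95% interval -0.06 to 0.35). For Calr, Pdia4 and Pdia6 the differences were -0.05 (95% interval -0.20 to 0.10), -0.07 (95% interval -0.27 to 0.13) and -0.01 (95% interval -0.22 to 0.20), so differences of that size remain possible.

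Within groups, some mice were low or high in several members. The control mouse labelled 13_25 was the lowest of its group in 9 of the 10 genes, all but Herpud1. Without it, the differences of H2S-ventilated from control lungs were -0.40 for Calr (adjusted p = 0.00489), -0.53 for Pdia4 (adjusted p = 0.0024), -0.46 for Pdia6 (adjusted p = 0.00756), 0.46 for Dnajb9 (adjusted p = 0.0126) and 0.48 for Herpud1 (adjusted p = 0.00685). Among ventilated mice, the H2S-ventilated mouse 9_12 was lowest in Hspa5, Calr, Pdia4 and Pdia6, and the air-ventilated mouse 11_6 was lowest in these and in Hsp90b1 but highest in Xbp1. The air-ventilated mouse 34_22 was the highest of its group in Hspa5, Calr, Pdia4 and Pdia6 and the lowest in Pdia3 and Dnajb9.

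The last numbers in the mouse labels fall into 1 to 12, with 3 mice per group, and 20 to 28, with 2 mice per group. For H2S-ventilated minus control lungs, the log2 difference was -0.42 in the lower and -0.26 in the higher numbers for Calr, -0.53 and -0.32 for Pdia4, and -0.49 and -0.23 for Pdia6. It was 0.47 and 0.54 for Dnajb9 and 0.57 and 0.34 for Herpud1. For air-ventilated minus control lungs the values were -0.40 and -0.17 for Calr, -0.49 and -0.21 for Pdia4, -0.47 and -0.22 for Pdia6, 0.46 and 0.20 for Dnajb9, and 0.33 and 0.24 for Herpud1. Every one of these genes kept its direction within both sets of numbers. A limma interaction of number set and ventilation passed for 0 of 20 member differences from control, with 0 at an unadjusted p under 0.05.

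Over the 15 arrays, which include the differences between groups, the genes most like Hspa5 by Pearson correlation of log2 intensity were Cox18 (r = 0.87), Pter (r = 0.83), Dnajb11 (r = 0.82), Sdf2l1 (r = 0.81) and Ccnd2 (r = 0.79). Spearman's rho for these was 0.87, 0.82, 0.83, 0.74 and 0.69, and r without the 2 mice farthest from the median of Hspa5 was 0.75, 0.75, 0.83, 0.71 and 0.63. Dnajb11 (ERdj3) and Sdf2l1 encode partners of BiP. Of the members, Pdia6 (r = 0.78) ranked 6 of 19933 genes, Calr (r = 0.71) ranked 37, Pdia4 (r = 0.61) ranked 221 and Hsp90b1 (r = 0.58) ranked 385. Canx and Pdia3 had r of 0.34 and 0.32, and Dnajb9, Herpud1 and Xbp1 had r of -0.27, -0.45 and -0.26. These correlations are descriptions, since all genes were read from the same arrays.

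Other genes of the ER were counted over 7 lists of cochaperones, disulfide enzymes, glycan trimming, prolyl isomerases, translocation, degradation and unfolded protein response regulators. Of the listed genes that are no members, 97 were measured, with 7 higher and 2 lower in H2S-ventilated than in control lungs, or 7.22% and 2.06%. In air-ventilated lungs 4 were higher and 2 lower, or 4.12% and 2.06%. Over all transcript clusters the higher and lower shares were 3.92% and 3.93% with H2S and 1.56% and 1.89% with air. Between H2S- and air-ventilated lungs 0 passed. The median log2 difference over the 97 genes was 0.02 with H2S and 0.00 with air.

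The 2 lower genes were Sdf2l1 and Pdia5. Sdf2l1, a BiP cochaperone, had 614, 644, 409, 659 and 581 in H2S-ventilated mice, 620, 476, 514, 640 and 533 in air-ventilated mice and 807, 905, 784, 924 and 654 in control mice. It fell by 0.50 on the log2 scale with H2S (adjusted p = 0.0311) and by 0.55 with air (adjusted p = 0.0318), and the lowest control value again came from the mouse labelled 13_25. Pdia5, a further disulfide isomerase, averaged 365 ± 20.4 in H2S-ventilated, 375 ± 43.0 in air-ventilated and 524 ± 86.3 in control mice (SD, n = 5 each). Pdia5 fell by 0.51 with H2S (adjusted p = 0.00674) and by 0.48 with air (adjusted p = 0.0184), and all 10 ventilated mice were below all control mice.

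Among the higher genes, Qsox1, a secretory sulfhydryl oxidase, averaged 2474 ± 248 in H2S-ventilated, 2404 ± 239 in air-ventilated and 1526 ± 182 in control mice (SD, n = 5 each). It rose by 0.70 with H2S (adjusted p = 0.000655) and by 0.66 with air (adjusted p = 0.00267). Fkbp14, an ER prolyl isomerase, rose by 0.68 with H2S (adjusted p = 0.00517) and by 0.75 with air (adjusted p = 0.00638). Ern1, which encodes the sensor IRE1, rose by 0.49 with H2S (adjusted p = 0.00312) and by 0.40 with air (adjusted p = 0.0184). Nploc4, a cofactor that extracts proteins for degradation, rose by 0.36 with H2S (adjusted p = 0.004) and by 0.26 with air (adjusted p = 0.0487). Edem3, Ssr3 and Ppp1r15b rose by 0.25, 0.33 and 0.31 in H2S-ventilated lungs alone among the comparisons with control, and their H2S- minus air-ventilated differences did not pass. The genes of the other sensors, chosen after their values were seen, had log2 differences with H2S and with air of 0.14 and 0.13 for Atf6 and of 0.03 and -0.02 for Eif2ak3, and neither passed.

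The ER chaperones stood beside a pair of other stress gene lists. Of 16 measured cytosolic heat shock chaperones, 7 were higher and 0 lower with H2S against control, 1 was higher with air against control, and 2 were higher with H2S against air, with median differences of 0.37, 0.11 and 0.28. Over all transcript clusters, 3.92% were higher with H2S and 1.56% with air against control, and 0.0776% passed in either direction between H2S and air. The integrated stress response is the branch of stress signalling that acts through Atf4. Of the 18 genes listed for it, which include Atf4 itself, 10, 4 and 1 were higher in the same comparisons and 0 lower, with medians of 0.49, 0.27 and 0.29. Atf4 averaged 684 ± 66.3 in H2S-ventilated, 538 ± 25.1 in air-ventilated and 462 ± 32.8 in control mice (SD, n = 5 each), and rose by 0.56 with H2S (adjusted p = 0.000554). The single gene of this list that passed between H2S- and air-ventilated lungs was Chac1, a glutathione-degrading enzyme, which rose by 0.88 (adjusted p = 0.0317).

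**Figure D4:**
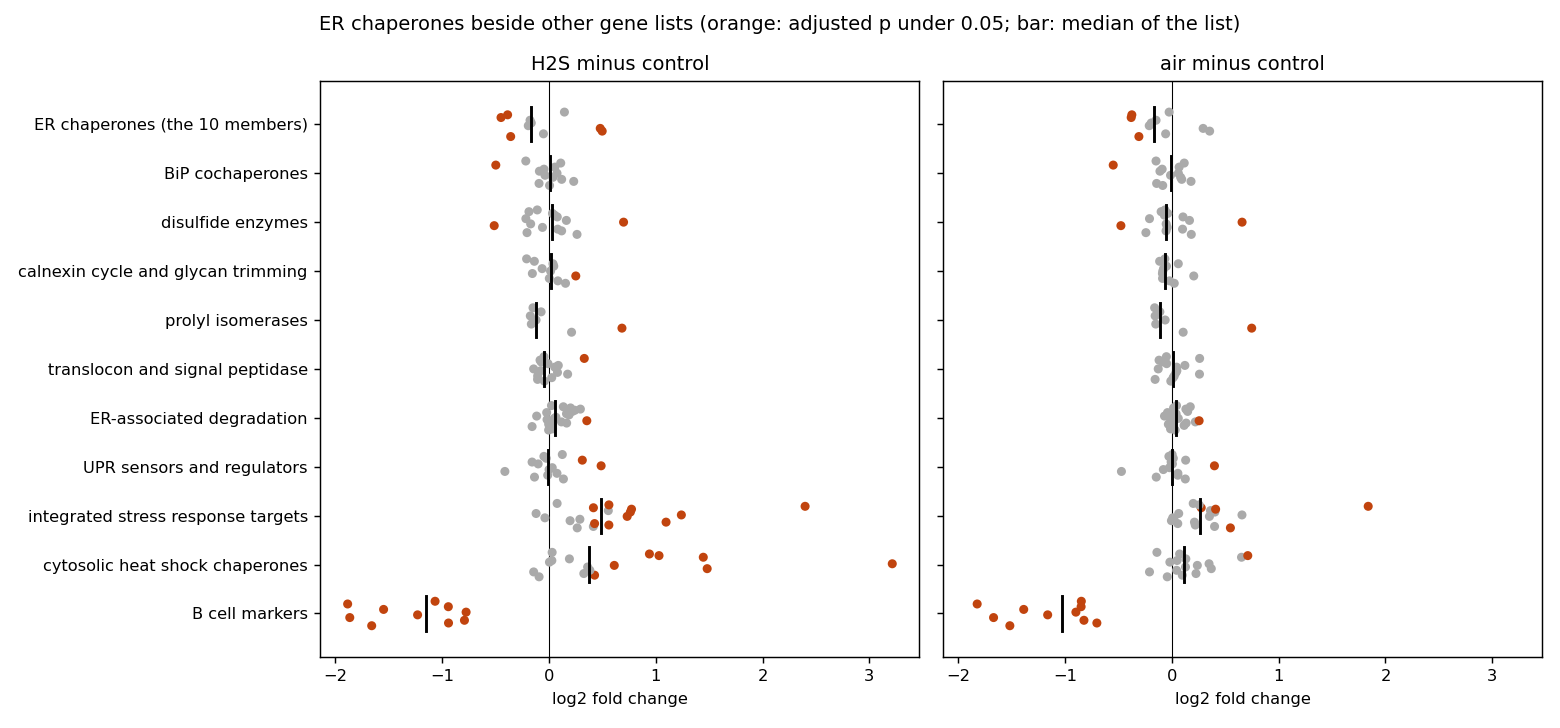
Log2 fold change against control of single genes, by list, with H2S ventilation in one panel and air ventilation in the other. Each point is a gene, orange points passed at an adjusted p under 0.05 and bars are medians of a list. The median of the 10 ER chaperones was -0.17 in both panels, and all 10 B cell markers were lower in both.

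Markers of cell types moved in the same comparisons. All 10 measured B cell markers were lower in H2S- and in air-ventilated than in control lungs, with median log2 differences of -1.15 and -1.03, and their summed intensity was 1458 to 2807 in H2S-ventilated, 1573 to 3632 in air-ventilated and 3834 to 6643 in control mice. The control mouse 13_25, lowest of its group in 9 members, had the highest B cell sum, 6643. Other mice went the other way. The H2S-ventilated mouse 9_12, lowest of its group in 4 members, had the lowest sum of its group, 1458. The air-ventilated mouse 34_22, highest of its group in 4 members, had the highest sum of its group, 3632. The air-ventilated mouse 11_6, lowest of its group in 5 members, had 2005. Of 8 plasma cell markers 0 passed in either comparison, and their sum was 2516 to 3279 in H2S-ventilated, 2687 to 3819 in air-ventilated and 2922 to 3512 in control mice. Their median log2 difference was -0.17 with H2S, with 7 of 8 negative, and -0.02 with air, with 4 of 8 negative. Of 12 neutrophil markers 4 were higher with H2S and 3 with air, with sums of 11184 to 21306, 12206 to 17885 and 7174 to 12681 in H2S-ventilated, air-ventilated and control mice. Endothelial sums were 24705 to 27010 in H2S-ventilated, 23847 to 26726 in air-ventilated and 28101 to 31781 in control mice, with 3 and 2 of 8 markers lower. The mouse 9_12 had the lowest endothelial sum of the H2S-ventilated group, 24705. In the air-ventilated group 11_6 had the lowest, 23847, and 34_22 the highest, 26726. The control mouse 13_25 had 28604, and the lowest control sum was 28101 in 12_21. In neutrophil sums 9_12 and 34_22 were each the lowest of their group. Of 8 alveolar macrophage markers 4 were higher with H2S and 1 with air, with sums of 13380 to 14762 in H2S-ventilated, 12248 to 13211 in air-ventilated and 11356 to 13439 in control mice. Alveolar type II markers, 10 in number, had 1 higher and 1 lower with H2S and 0 with air. Alveolar type I markers had 2 of 8 lower with H2S and 0 with air. Club and ciliated cell markers had 1 of 6 lower with H2S and 0 with air, and T cell markers 1 of 7 lower with each. Of 7 fibroblast markers 0 passed, with median log2 differences of -0.22 with H2S and -0.30 with air. The part of these cell types in the changes of the ER chaperones was not tested.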

How the data were processed

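Lung RNA of 15 mice was hybridized to Affymetrix whole-transcript arrays. The deposited intensity values are on a linear scale. Per the paper's methods, the authors subtracted a GC-dependent background, normalized arrays by quantiles and summarized probes by RMA, which the submitters' processing notes also name. The value table has 15 sample columns, and 0 others were left unused. Symbols came from GEO's platform annotation: 21780 transcript clusters had 1 symbol, 1617 several and 4964 none here.

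The plan had expected log2 values, so the linear intensities were put on the log2 scale before the fit with limma 3.58.1 (lmFit, contrasts.fit, eBayes) in R 4.3.3 with no covariate and no filter. The steps were tested on simulated data. Alternatives were CyberT (confidence 15, window 101), an intensity trend, array weights, other centring and normalization, a filter on dim rows, the mean of the rows of a gene, the study's thresholds, only the groups compared, the label numbers as sets, and leaving out each mouse.

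The named genes were all 10 members, up to 3 genes per pathway list with the smallest adjusted p against control, and the 5 genes most correlated with Hspa5. Members and lists were chosen with earlier results of these data known. Mice breathing H2S spontaneously, histology and protein blots are not analysed here.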

Additional observations from a re-analysis of the deposited data

Results flagged for a closer look

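Of 30 groups of 5 mice (10 genes in 3 groups), 3 held a mouse whose gap to its nearest neighbour was large against the range of its group by Dixon's criterion, which chance alone meets in about 1 group in 20. Hsp90b1 was 2238.06 in the H2S-ventilated mouse 4_8, while the other 4 H2S-ventilated mice had 2552 to 2677. Xbp1 was 4522.04 in the air-ventilated mouse 11_6, while the other 4 air-ventilated mice had 3508 to 3643. Pdia6 was 1020.68 in the control mouse 13_25, while the other 4 control mice had 1282 to 1375. Neither Hsp90b1 nor Xbp1 passed in any comparison with these mice included or left out.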

How the results depend on the processing

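Across 27 alternatives, 15 of which left out 1 mouse, no called member changed direction. The 3 genes lower with air were the least stable: the count was 1 with CyberT (Pdia6) and with the mean of the rows of a gene (Calr), and 0 when only the air and control groups were fitted, at the study's thresholds with fold changes from means or from medians, and within either set of label numbers. The count of members higher with air, 0, became 2 (Dnajb9 and Herpud1) with an intensity trend, array weights, CyberT, median centring of arrays and the dimmest 25% of rows left out. With H2S, the 2 higher and 3 lower members became 0 and 0 at the study's thresholds and within label numbers 20 to 28, where 2 mice per group remained. Pdia6 also lost its call with H2S within label numbers 1 to 12 (-0.49, adjusted p = 0.0523) and with air under median centring (-0.35, adjusted p = 0.0633), which left 2 lower members each time. Leaving out 1 mouse gave 2 to 2 higher and 2 to 3 lower with H2S, 0 to 1 higher and 0 to 3 lower with air, and 0 to 0 between H2S and air. Differences that changed sign were never past the threshold. With a further quantile normalization, H2S minus air was -0.0178 for Hspa5, -0.0181 for Hsp90b1 and -0.0228 for Canx. In label numbers 1 to 12 it was -0.0246 for Hsp90b1 and -0.0526 for Canx. In numbers 20 to 28, H2S minus control was 0.0855 for Canx and 0.0413 for Pdia3, air minus control 0.0283 for Pdia3 and 0.0340 for Xbp1, and H2S minus air 0.0130 for Pdia3. With 1 mouse left out, air minus control was -0.0915 to 0.0107 for Xbp1, and H2S minus air was -0.0249 to 0.0665 for Hspa5, -0.0316 to 0.0631 for Hsp90b1, -0.0247 to 0.0380 for Canx, -0.0719 to 0.0291 for Pdia3 and -0.0662 to 0.0415 for Pdia6. The causes were not tested. With the set of label numbers (1 to 12 or 20 to 28) as a block, the counts were unchanged at 2 higher and 3 lower with H2S, 0 and 3 with air, and 0 and 0 between H2S and air. The last label numbers are not shared between groups, and a block for the first numbers, of which 6 and 12 each stand on an air-ventilated and a control mouse, was not fitted.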
